A study of Homo sapiens with 16 samples.

Results

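The cytosolic ribosomal protein genes were taken by name. Every row of the count table was kept whose symbol is RPL or RPS followed by a number, with a closing A, X or L and a last digit allowed, together with RPLP0, RPLP1, RPLP2, RPSA and FAU. Names with a P after the number, which mark pseudogenes, were left out, and RPL36AL is not reached by the rule. It gave 86 of the 25221 rows, with 84 different symbols. Of these genes, 46 are core genes of the large subunit, 31 are core genes of the small subunit and 7 are paralogs (RPL3L, RPL7L1, RPL10L, RPL22L1, RPL26L1, RPL39L and RPS27L). The remaining 2 rows bear the symbols RPL28 and RPL8 but the identifiers of the miRNA genes MIR6805 and MIR6850, and both held 0 counts.

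Each ribosome needs its full set of proteins in fixed proportion, and growing cells keep these transcripts among the most abundant of all. Most of them begin with a C followed by a run of pyrimidines, the terminal oligopyrimidine (TOP) tract, through which mTOR signalling and the protein LARP1 set how well they are translated. Translation of such mRNAs can change while their amount does not, and the counts described here measure amount. In blood, loss of a single copy of several of these genes causes Diamond-Blackfan anemia, a failure of red cell production, and a deletion that takes RPS14 underlies the anemia of a form of myelodysplastic syndrome.

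RNA was sequenced from the human leukemia lines MOLM13 (monocytic acute myeloid leukemia with an MLL fusion) and K562 (erythroid-like chronic myeloid leukemia in blast crisis, with BCR-ABL). Cells of each line were treated for 4 h with 20 µM Ro 08-2750 (Ro), a small molecule that blocks RNA binding by the MUSASHI protein MSI2, or with 0.1% DMSO alone. There were 4 libraries in each of the 4 groups, 16 in all, and the labels number them as pairs 1 to 4 of DMSO and Ro within each line. MOLM13 was at passages 8 to 12 and K562 at passages 12 to 18, and each line is a single established culture. The labels do not say what the libraries of a pair share. The p-values below therefore measure the spread between these libraries.

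Library totals ran from 3143129 to 43571060 counts, and the shallowest were the K562 DMSO libraries of pair 2 and of pair 4, the latter with 4383241 counts. A list of 10 MOLM13 markers (CEBPA, FLT3, HOXA9, IRF8 and others) summed to between 1068 and 1642 CPM (counts divided by the library total and scaled to a common size) in the MOLM13 DMSO libraries and to between 144 and 226 CPM in the K562 DMSO libraries. A list of 10 K562 markers (GATA1, KLF1, TAL1, the globin HBG2 and others) summed to between 1770 and 2884 CPM in K562 DMSO and to between 7.59 and 8.81 CPM in MOLM13 DMSO. HOXA10 of the first list and HBE1 of the second were listed at 0 throughout, and LYZ (23.4 and 17.8 CPM in MOLM13 and K562 DMSO) and CD33 (14.9 and 12.3 CPM) hardly told the lines apart. The most counted row of the table, an identifier without a symbol there, took from 4.11% to 24.3% of the counts of a MOLM13 library and from 0.269% to 6.44% of a K562 library. CPM values below are therefore scaled by the trimmed mean of M-values (TMM) over the 16 libraries, which a single row does not set.

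Of the 84 member genes, 67 had an entry among the RefSeq promoters (build GRCh38.p14). Some start of 47 of these genes, or 70.1%, began with a C followed by at least 4 bases that are each C or T. The same held for 5.14% of the 27305 genes in the whole promoter table. It held for 46 of 62 core genes (74.2%) and for 1 of 5 paralogs (20.0%). Among mitochondrial ribosomal protein genes it held for 6 of 70 (8.57%). The windows below show the most counted members, the members that differed most between the lines, members with lower levels in the Ro libraries of MOLM13 and paralogs with and without the tract. Each runs 5′ to 3′ from 20 bases before the annotated start through the first 20 bases of the first exon, and capitals mark the unbroken run of C and T from the first transcribed base.
RPL27A (chr11:8682772-8682811, plus strand): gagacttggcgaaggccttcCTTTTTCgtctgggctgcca
RPS24 (chr10:78033843-78033882, plus strand): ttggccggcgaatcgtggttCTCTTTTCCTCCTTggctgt
RPS12 (chr6:132814549-132814588, plus strand): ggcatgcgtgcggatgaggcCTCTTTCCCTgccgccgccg
RPL21 (chr13:27251538-27251577, plus strand): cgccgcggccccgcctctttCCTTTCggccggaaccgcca
RPL12 (chr9:127451387-127451426, minus strand): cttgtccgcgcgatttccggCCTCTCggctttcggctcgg
RPS6 (chr9:19380217-19380256, minus strand): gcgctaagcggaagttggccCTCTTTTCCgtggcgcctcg
RPL29 (chr3:51995876-51995915, minus strand): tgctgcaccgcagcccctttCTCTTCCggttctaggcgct
RPL10A (chr6:35468381-35468420, plus strand): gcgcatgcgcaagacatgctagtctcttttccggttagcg
RPL22L1 (chr3:170870176-170870215, minus strand): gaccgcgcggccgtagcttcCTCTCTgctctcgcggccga
RPL7L1 (chr6:42879596-42879635, plus strand): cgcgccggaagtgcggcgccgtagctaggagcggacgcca
RPS27L (chr15:63157458-63157497, minus strand): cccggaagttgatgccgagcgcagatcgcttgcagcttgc
The pyrimidine run was 14 bases in RPS24 and 6 bases in RPL12, RPL21 and RPL22L1, and at the annotated starts of RPL10A, RPL7L1 and RPS27L there was none.

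Ribosomal protein transcripts were abundant in both lines, but their levels were far from equal. Of the 20 rows of highest mean CPM, 11 were members in MOLM13 DMSO and 11 in K562 DMSO. Among the first 100 rows, 50 were members in MOLM13 and 39 in K562. The 68 core genes with enough counts for a test (at least 10 in at least 4 libraries of a comparison) had a median of 1689 CPM in MOLM13 DMSO and of 1129 CPM in K562 DMSO. From the 10th to the 90th percentile of these genes the level rose 13.7-fold in MOLM13 and 11.9-fold in K562. Since the library kit reads each transcript once near its 3′ end, counts do not grow with transcript length, but reads shared with pseudogenes could be lost for some members and not for others, so an order between genes is less certain than an order between samples. The summed level of the tested core genes was nearly the same for both subunits, with 99677 CPM on the large and 98952 CPM on the small subunit in MOLM13 DMSO and 57426 and 53978 CPM in K562 DMSO.

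RPL27A, a protein of the large subunit, was the most counted member in both lines. It held 21397, 17161, 20066 and 26295 CPM in MOLM13 DMSO pairs 1 to 4 and 20397, 18046, 18681 and 20088 CPM with Ro. In K562 it held 13117, 9382, 10843 and 10961 CPM with DMSO and 16136, 10290, 10561 and 9972 CPM with Ro. The treated and untreated ranges overlapped in each line, while every MOLM13 library lay above every K562 library. RPS24, a small subunit protein mutated in Diamond-Blackfan anemia, followed in MOLM13 with 13386 ± 1092 CPM (SD, n = 4), then RPS12 with 11709 ± 1292 CPM. In K562 the next members were RPS27A, made as a fusion with ubiquitin, at 6014 ± 1884 CPM and RPS12 at 5256 ± 1365 CPM. Library by library, RPS24 exceeded RPS12 in 8 of 8 MOLM13 libraries and RPS27A exceeded RPS12 in 8 of 8 K562 libraries. The order was taken from the DMSO libraries among these, and a loss of reads for a gene could recur in every library. The recurrence therefore does not make the order between genes more certain.

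At the other end, 9 core genes did not reach the minimum for a test in either line. RPL15, RPL32, RPL35A, RPS4X and RPS28 were listed at 0 in all 16 libraries, RPL17 and RPL26 had 1 count each in all, RPL36A had 15 and RPS10 had 114. A count of 0 allows up to 3 counts, which is from 0.0689 to 0.954 CPM in these libraries. Because every cell builds ribosomes with these proteins, the zeros say only how the table lists the genes, and no fold is given for them. The annotation (GENCODE) names between 3 and 26 pseudogene copies of these 9 genes, with a median of 14, against a median of 8 and a range of 0 to 91 for the core genes that were tested. Whether reads that also match such copies were dropped is not given in the sources used here, and the part of the copies in the zeros was not tested. Among tested genes named below, RPL23A has 91 named copies, RPSA 74, RPL21 66, RPL7 61 and RPL12 50. RPS6 has 13 and RPS24 has 10. The part of the copies in the values of these genes was not tested either. RPL5, which binds the 5S ribosomal RNA, has 35 named copies and was counted only 1016 times in all, at 5.31 ± 1.23 CPM in MOLM13 DMSO, far below RPL11, its partner in the 5S particle, at 2034 ± 136 CPM. Its values are kept below but rest on 4 to 179 counts a library. The small subunit gene RPS9 was not analysed here.

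Member rows took 15.8%, 16.8%, 17.7% and 19.0% of all counts in MOLM13 DMSO pairs 1 to 4, and 14.5%, 16.6%, 17.6% and 17.3% with Ro. The share was lower with Ro in 4 of 4 pairs, with differences from -1.68 to -0.0759 percentage points, and the means were 17.3 ± 1.34% and 16.5 ± 1.38% (SD, n = 4). In K562 the share was 13.6%, 12.8%, 11.6% and 13.4% with DMSO and 15.5%, 11.4%, 11.5% and 13.3% with Ro. There the differences were 1.93 points in pair 1, -1.42 in pair 2, -0.0193 in pair 3 and -0.113 in pair 4. Without the most counted row of the table the MOLM13 DMSO libraries ran only from 19.7% to 20.3% and the Ro libraries from 18.4% to 19.6%. The 2 MOLM13 groups did not overlap on that scale. Large and small subunit counts stayed near parity throughout, with a ratio of 1.01 ± 0.0315 in MOLM13 DMSO, 0.984 ± 0.0249 with Ro, 1.07 ± 0.0589 in K562 DMSO and 1.06 ± 0.0294 with Ro. In MOLM13 the ratio was lower with Ro in 4 of 4 pairs, with differences from -0.045 to -0.0017. The large subunit share of all counts fell in each of these pairs, while the small subunit share rose in 2 of 4. In K562 the ratio was higher with Ro in 2 of 4 pairs. The 7 paralogs together took 0.0782 ± 0.00386% of counts in MOLM13 DMSO and 0.0751 ± 0.00261% in K562 DMSO. With Ro they took 0.0804 ± 0.00649% in MOLM13, higher in 4 of 4 pairs, and 0.0755 ± 0.00387% in K562, higher in 2 of 4.

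**Figure D1:**
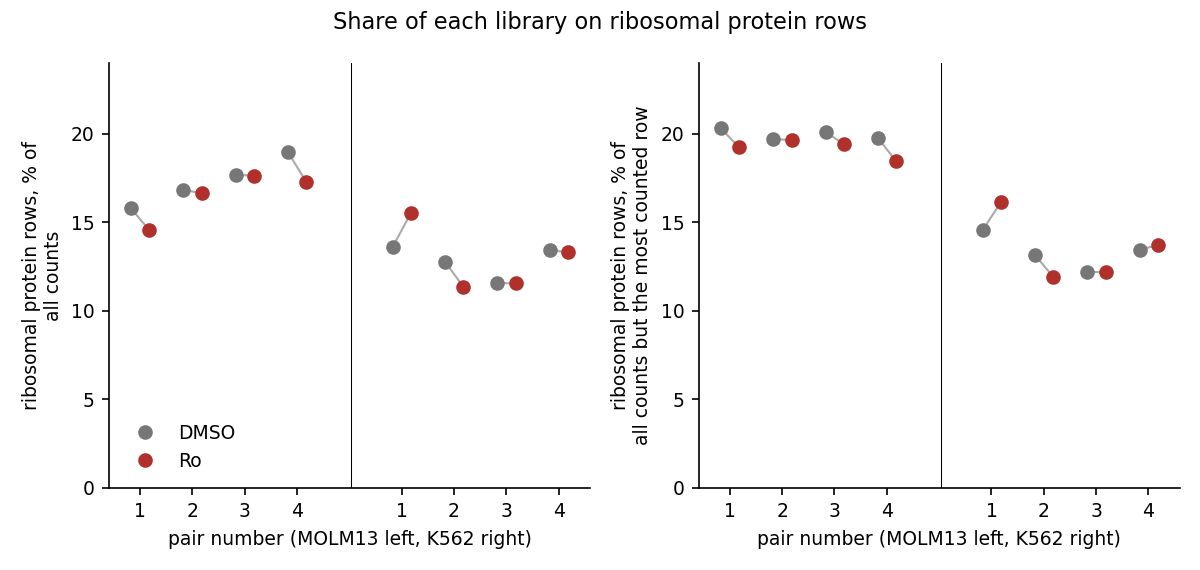
Percentage of each library's counts on the 86 ribosomal protein rows, by pair, with grey points for DMSO and red points for Ro, joined within a pair. The left panel uses all counts and the right panel leaves out the most counted row of the table; in MOLM13 each red point lies below its grey partner, and K562 pairs 1 and 2 move in opposite directions.

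The first question was what 4 h of Ro did to these transcripts in MOLM13. Nearly every member had a slightly lower level, and none passed the adjusted test in edgeR. In edgeR without pairing, 71 of the 74 members tested had a negative log2 change, and the median was -0.14, against 0.00 over all 15031 genes tested. At an adjusted p under 0.05, 0 members were called, as were 0.0% of all genes in either direction. Before adjustment, p was under 0.05 for 2 members with a lower level (RPL5 among them, 0.326% of all genes) and for 0 with a higher one (0.838%). In bulk RNA, less RNA per cell and fewer cells that make it cannot be told apart. With the pair as a block the median was again -0.14. Then 0 members passed the adjusted threshold, where 0.938% of all genes were called higher and 1.17% lower. Before adjustment, 38 of 74 members passed with a lower level and 0 with a higher one in the blocked fit (9.65% and 7.55% of all genes). Other tools called a few members, all of them lower. DESeq2 without the block called 0 in either direction (0.00665% of all genes higher and 0.0% lower), and had 0 higher and 9 lower before adjustment (0.785% and 0.459%). With the block it called 4 lower and 0 higher (1.31% and 0.459%), and had 43 lower and 0 higher before adjustment (7.84% and 3.79%). In limma-voom with the block, 2 were called lower and 0 higher (1.27% and 0.958%), and 47 were lower and 1 higher before adjustment (9.92% and 7.6%).

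Counted pair by pair, 50 of the 74 members were lower with Ro in 4 of 4 pairs, as were 15.4% of all genes tested. A further 16 were lower in 3 pairs, 6 in 2 and 2 in 1, and no member was higher in all 4. By subunit, the 50 comprised 30 of 40 large subunit genes, 17 of 28 small subunit genes and 3 of 6 paralogs. The DMSO and Ro ranges of 20 members did not overlap, with Ro lower in each of the 20, where 0.632% of all genes lay apart in that direction. The median member change was -0.14, -0.08, -0.23 and -0.18 in pairs 1 to 4, so that pair 2 moved least and pair 3 most. The 1123 other genes of like mean level had medians of -0.06, -0.02, -0.15 and -0.12. They share the range of the abundant core genes, but their levels within it were not matched to the members. In the interval of 1 log2 unit from 128 CPM there were 638 other genes and 3 members. In that from 1024 CPM there were 27 and 19. These other genes of like mean level too moved least in pair 2 and most in pair 3. Large and small subunit genes had the same median of -0.14 in the blocked fit.

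**Figure D2:**
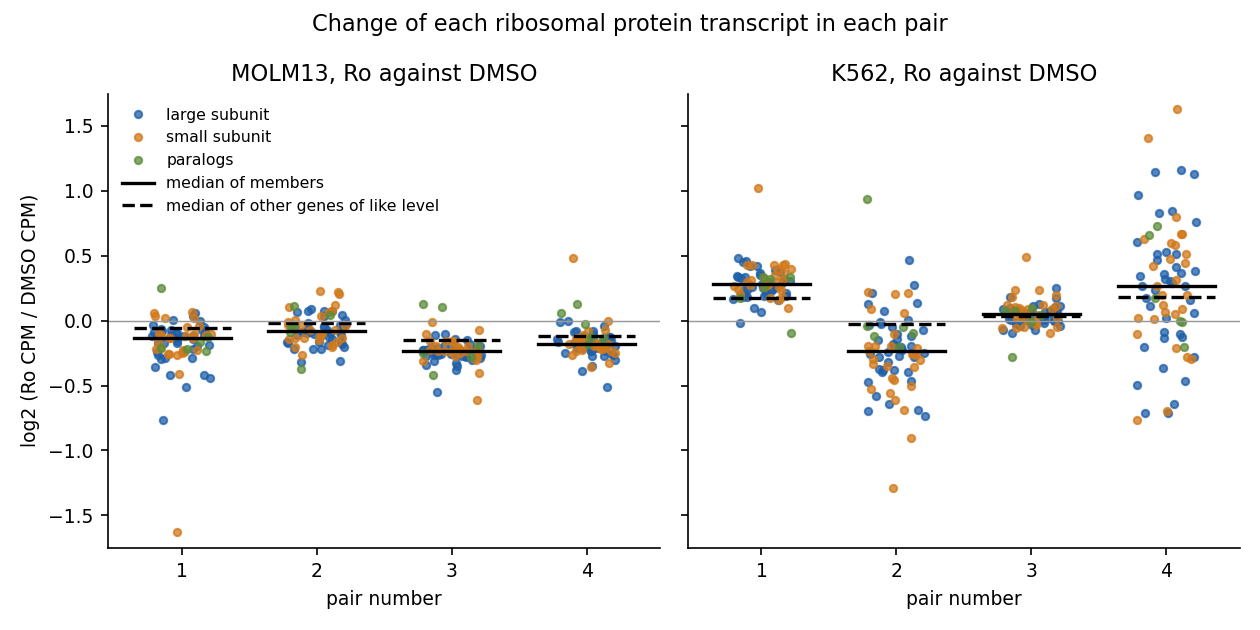
Log2 ratio of Ro over DMSO CPM for each of the 74 tested ribosomal protein genes in each pair of MOLM13 (left) and K562 (right), coloured by subunit, with points spread sideways for view. Solid bars mark the member median and dashed bars the median of other genes of like mean level; the MOLM13 medians are all below 0, and the K562 medians lie on both sides of it.

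The members with the smallest p in the blocked fit of MOLM13 were of the large subunit. RPL23A, which sits at the rim of the exit tunnel where the signal recognition particle docks, held 1555, 1361, 1632 and 1174 CPM with DMSO and 1146, 1091, 1255 and 1170 CPM with Ro. It was clearly lower in the first 3 pairs and nearly level in the last, so the ranges overlapped. Its log2 change was -0.27 with SE 0.0716 (edgeR adjusted p = 0.0536, DESeq2 adjusted p = 0.0351, both with the block).

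RPL29, a basic protein of the large subunit, held 189.9, 180.3, 207 and 175 CPM with DMSO and 148, 161, 171 and 147 CPM with Ro, with no overlap. The change was -15.6% in edgeR with the block (adjusted p = 0.0668), and DESeq2 with the block called it (adjusted p = 0.0352). RPL10A, the protein of the stalk that guides spent tRNA out of the ribosome, held 1088, 1035, 1156.5 and 1398 CPM with DMSO and 815, 1019.6, 948 and 1162 CPM with Ro. Pair 2 barely moved there, and the ranges overlapped (log2 change -0.23, SE 0.0708, edgeR adjusted p = 0.0990 with the block). RPL5, at its few counts, went from 7.04, 4.82, 4.17 and 5.22 CPM to 4.11, 3.87, 2.81 and 3.62 CPM, lower in 4 of 4 pairs and without overlap (log2 change -0.51, SE 0.152, edgeR adjusted p = 0.0855 with the block). RPS2, which lines the entry of the mRNA channel, was named after its values were seen because it is the last of the genes that DESeq2 with the block called. It went from 1127, 1079, 1164 and 1126 CPM to 944, 935, 989.5 and 996 CPM (DESeq2 adjusted p = 0.0489, edgeR adjusted p = 0.105, both with the block), a narrow spread in each group and a clear gap between them.

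**Figure D3:**
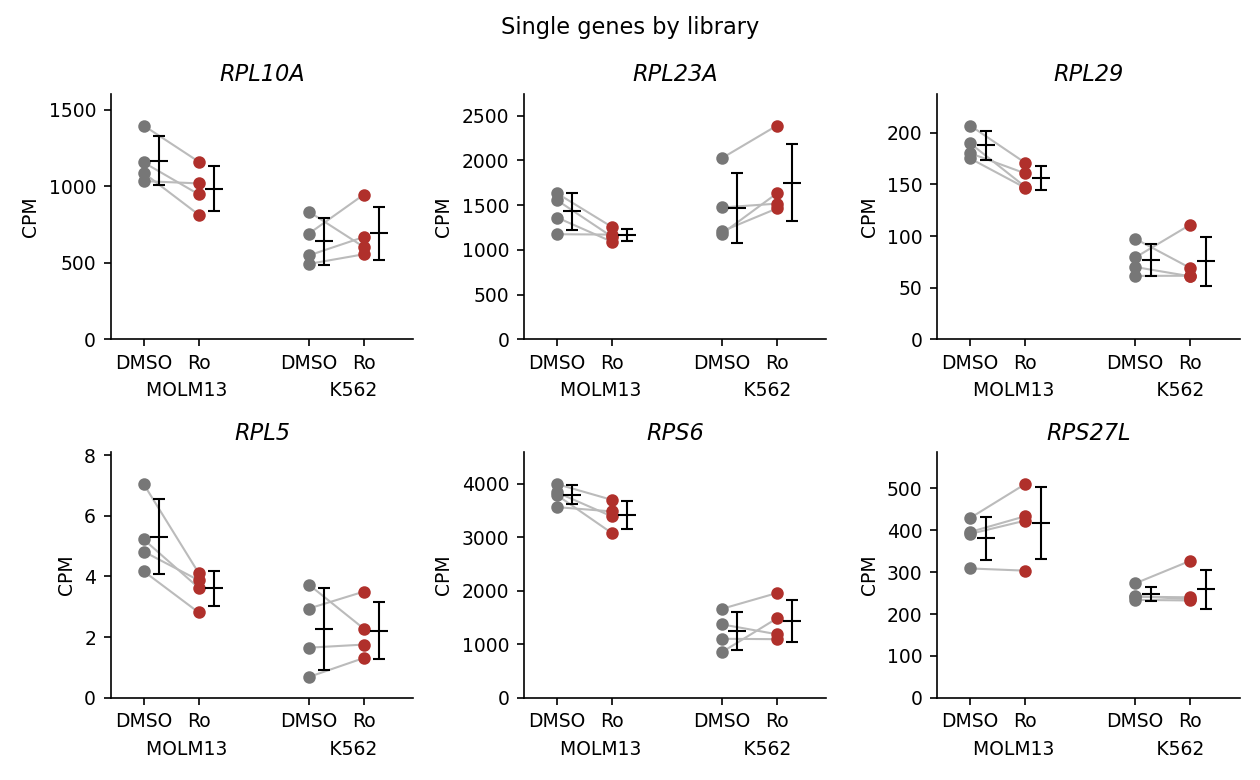
CPM of 6 ribosomal protein genes in each library, with DMSO in grey and Ro in red, lines joining pairs, and black bars for the mean ± SD of 4 libraries. RPL29 and RPL5 separate by treatment in MOLM13, RPL10A and RPL23A do not, RPS6 separates by line, and RPS27L was higher with Ro in 3 of 4 MOLM13 pairs.

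Members were also grouped by place in the ribosome, with no test of a difference between the groups, and are set against 38 of all 74 members and 9.65% of all genes lower at an unadjusted p under 0.05 in the blocked edgeR fit. The stalk proteins RPLP0, RPLP1 and RPLP2, which bring elongation factors to the ribosome, were each lower in 4 of 4 pairs, with blocked log2 changes of -0.12, -0.14 and -0.12. RPLP1 had the narrowest spread of these, with 6086 ± 222 CPM in the DMSO libraries and 5459 ± 138 CPM in the Ro libraries, and its ranges did not overlap. Of 8 tested proteins around the exit tunnel, 8 were lower and 6 had an unadjusted p under 0.05 (edgeR with the block), with a median of -0.16. Of 5 at the mRNA entry and decoding site, 5 were lower and 3 had an unadjusted p under 0.05, with a median of -0.19. Among 15 tested genes of Diamond-Blackfan anemia, 14 were lower and 7 had an unadjusted p under 0.05, with a median of -0.13. The pair that binds the 5S ribosomal RNA had blocked log2 changes of -0.51 for RPL5 and -0.10 for RPL11. The members made as fusions had changes of -0.04 (RPS27A) and -0.11 (FAU). RPS6, the small subunit protein phosphorylated by S6 kinase, held 3996, 3565, 3789 and 3840 CPM with DMSO and 3699.9, 3484, 3078 and 3391 CPM with Ro (log2 change -0.14, SE 0.0650, edgeR adjusted p = 0.284 with the block).

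Some members moved less, or upward. RPS12 changed by 0.06, 0.22, -0.22 and -0.20 on the log2 scale in pairs 1 to 4, so that its pairs disagreed and its fitted change was -0.02 with SE 0.0734. RPS27A was likewise higher in pairs 1 and 2 and lower in pairs 3 and 4 (log2 change -0.04, SE 0.0785). RPS27L, the paralog of RPS27 and a known p53 target, was the member with the largest positive value, from 429.5, 391.5, 396 and 309 CPM to 510.4, 423, 434 and 304 CPM. It was higher in 3 of 4 pairs with overlapping ranges (log2 change 0.14, SE 0.0679, edgeR adjusted p = 0.312 with the block), while RPS27 itself went from 1409.7 ± 225 to 1243 ± 199 CPM and was lower in 4 of 4 pairs.

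Members are among the most abundant transcripts, and in MOLM13 the change of all genes leaned with their level. Genes were sorted into intervals of 1 log2 unit of mean CPM. Among genes that are not members, the median log2 change in the blocked fit ran from 0.08 for 1536 genes in the interval that starts at 1 CPM through -0.04 for 1320 genes from 64 CPM to -0.13 for 27 genes from 1024 CPM. In that last interval the 19 members had a median of -0.13 as well. In the interval from 512 CPM, 12 members had a median of -0.18 against -0.09 for 80 other genes, and in that from 256 CPM 8 members had -0.15 against -0.09 for 240 other genes. Over the whole range of the abundant core genes, from 118 to 18008 CPM, the 1123 other genes had a median of -0.08, 34.1% of them were lower in 4 of 4 pairs and 0.98% lay apart and lower. After a smooth trend on mean level was subtracted, the member median went from -0.14 to -0.02. Members shape that trend at its upper end, so how much of their change the trend holds cannot be told apart from how much they give to it.

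**Figure D4:**
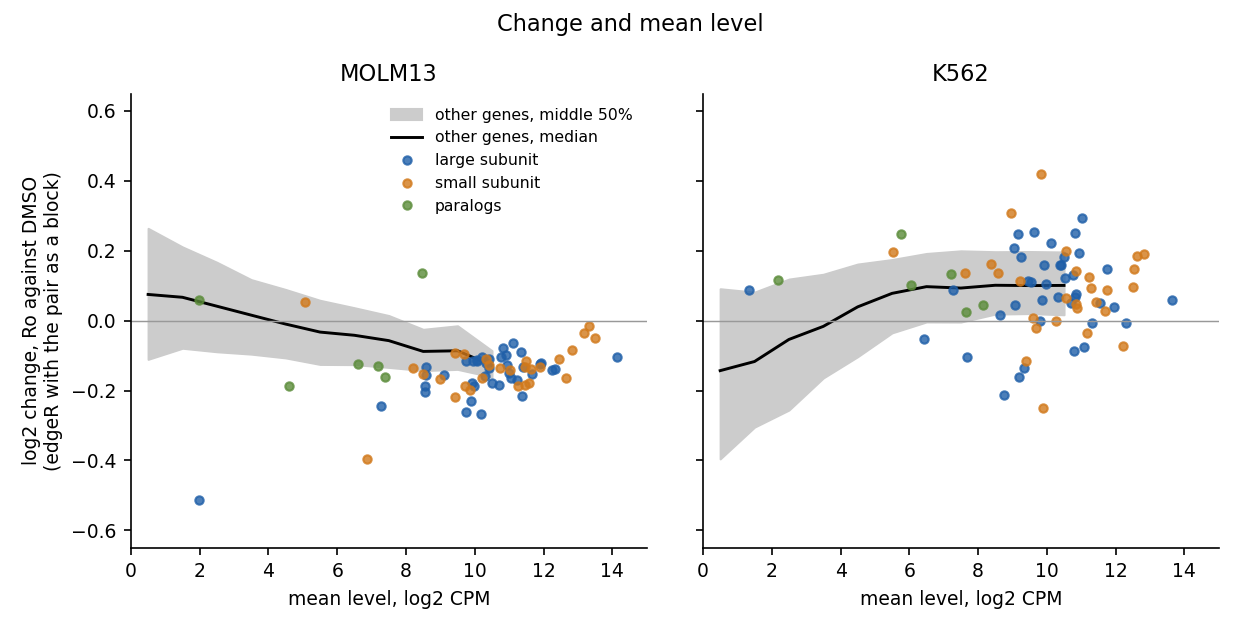
Log2 change with Ro (edgeR with the pair as a block) against mean log2 CPM in MOLM13 (left) and K562 (right). Points are the 74 tested ribosomal protein genes. The black line and grey band are the median and the quartiles of other genes in intervals of 1 log2 unit. They are drawn where an interval holds at least 20 of these genes, so the most abundant members have no band. In MOLM13 the band leans down toward abundant genes, and most members within its span of levels lie at or under it. In K562 the band leans up.

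In K562 the same treatment gave no shared direction across pairs. In edgeR without pairing, 60 of 74 members had a positive log2 change and the median was 0.09, against 0.02 over 15227 genes tested and 0.09 over 1152 other genes of like mean level. There, 0 members were called, and 0 had an unadjusted p under 0.05, in edgeR with or without the block, in DESeq2 with or without it, or in limma-voom with it. These fits called 0.0% of all genes, apart from 0.0131% higher in DESeq2 with the block. The genes past an unadjusted p of 0.05 were 0.341% higher and 0.887% lower in edgeR, 0.847% and 1.27% with the block, 0.296% and 1.37% in DESeq2, 0.676% and 0.979% with the block, and 0.782% and 1.6% in limma-voom. The member median was 0.29, -0.23, 0.05 and 0.27 in pairs 1 to 4, a spread (SD 0.241) well above that of MOLM13 (SD 0.0654). In pair 1, 2 of 74 members were lower, and in pair 2 it was 61. The DMSO libraries of pairs 2 and 4 are the shallow ones, and their part in this spread was not tested. In edgeR without pairing, leaving out the Ro library of pair 1 but keeping its DMSO partner turned the median to -0.11. That partner had the highest summed member level of the K562 DMSO libraries, at 134155 CPM, where the lowest was 97810 CPM. The change of sign therefore also rests on a DMSO library left without its partner. Scaling by the total count left 40 of 74 members higher and 34 lower, where the median of all genes moved from 0.02 to -0.03 and that of the members to 0.01.

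No member had separate DMSO and Ro ranges in K562, where 0.545% of all genes lay apart and higher and 0.65% apart and lower. RPL23A was the single member higher in 4 of 4 pairs (7.47% of all genes), from 2024, 1207, 1473 and 1180 CPM to 2388, 1462, 1516 and 1632 CPM. Its ranges overlapped, since pair 1 stood above the rest under both treatments, and its log2 change was 0.25 with SE 0.161 (edgeR adjusted p = 0.947 with the block). RPL22L1, RPS14 and RPS6 had fitted changes of 0.25, 0.09 and 0.20, with SEs of 0.164, 0.18 and 0.199. In the fit of pairs 1 and 3 alone, which leaves out the shallow libraries, 71 of 74 members had a positive change. Their median was 0.16, against 0.005 over all genes tested. Other genes of like mean level had medians of 0.177 in pair 1 and 0.035 in pair 3, where members had 0.285 and 0.050. In that fit 1 member was called higher and 0 lower (1.43% and 1.63% of all genes). It was RPS23, a protein of the decoding site, named after its values were seen.

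The difference between the lines in the response to Ro was tested directly, as the line by treatment term over 16 libraries. It was called for 0 of 75 members, and for 0.0% of 16224 genes, in edgeR with and without the block. Before adjustment, p was under 0.05 for 0 members without the block (1.09% of all genes higher in MOLM13 and 0.253% lower) and for 1 with it, RPL23A (3.08% and 2.93%). The term for RPL23A was -0.53 with SE 0.163 (adjusted p = 0.766 with the block), from changes of -0.27 in MOLM13 and 0.25 in K562. Of the 75 members, 71 had a negative term, with a median of -0.23. The median was -0.17 for 1246 other genes of like mean level, which share the range but were not matched within it. Without the Ro library of K562 pair 1, but with its DMSO partner kept, the member median was -0.05 in edgeR without the block. A difference in response between the lines was not shown for any member.

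The lines themselves differed clearly. In DMSO, 49 of 74 members were higher in MOLM13 and 1 was lower in edgeR, where 21.1% of all 15268 genes were called higher and 20.3% lower. DESeq2 called 52 members higher and 1 lower (22.6% and 21.7% of all genes). The median log2 difference was 0.75, against 0.00 over all genes and 0.01 over 1129 other genes of like mean level. The groups did not overlap for 51 members that were higher in MOLM13 (20.6% of all genes) and 1 that was lower (18.6%). The core large subunit genes had a median of 0.93 with 29 of 40 called, the core small subunit genes a median of 0.64 with 17 of 28 called, and the paralogs a median of 0.40 with 3 of 6 called higher and 1 lower. In the Ro libraries of the same lines 39 of 74 members were higher in MOLM13 and 3 lower, with a median of 0.55 (26.8% of all genes called higher and 27.5% lower). Scaling by the total count moved the median of all genes to -0.41 and that of the members to 0.34, with 27 members called higher (13.2% of all genes) and 4 lower (32.8%), so that members stayed 0.75 above all genes. With 1 line for each disease, line and disease cannot be told apart.

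**Figure D5:**
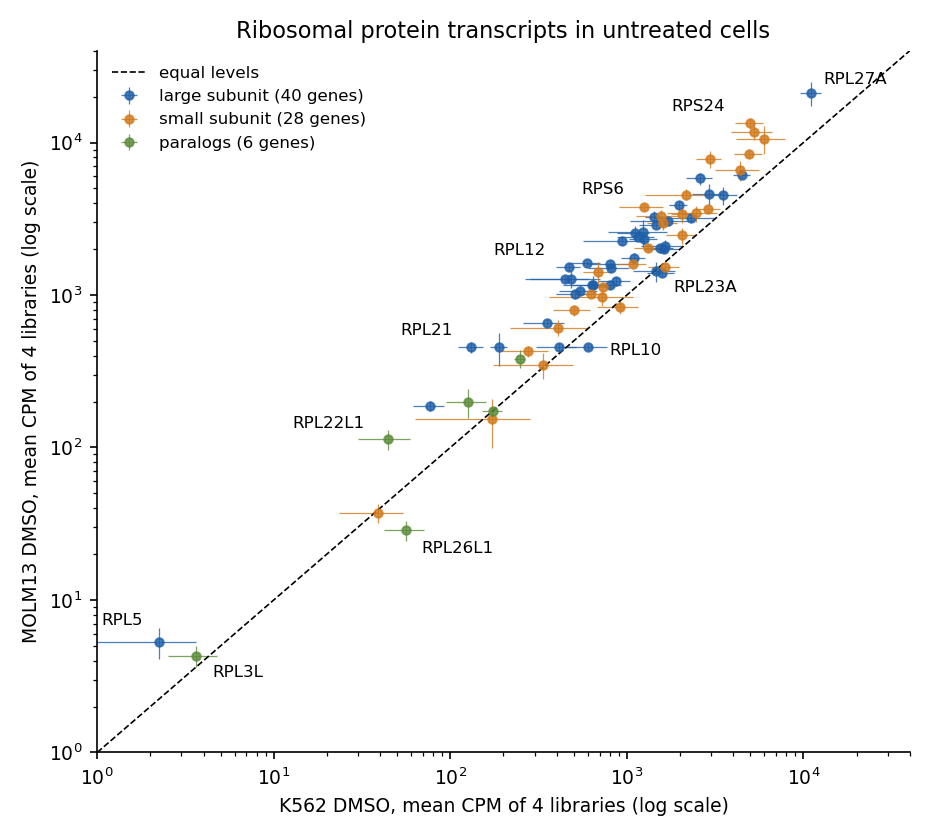
Mean CPM of the 74 tested ribosomal protein genes in MOLM13 DMSO against K562 DMSO on log axes, with SD over 4 libraries as bars and the dashed line at equal levels. Most points lie above the line, and RPL26L1 lies below it.

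RPL21 differed most, at 414, 442, 451 and 510.1 CPM in MOLM13 DMSO and 160.5, 132, 114 and 120.1 CPM in K562 DMSO, a 3.46-fold difference (log2 1.79, SE 0.205, edgeR adjusted p = 9.79e-06). RPL12, which forms the base of the stalk, held 1648, 1439, 1533 and 1474 CPM against 535, 414, 396 and 527 CPM, 3.26-fold higher in MOLM13 (edgeR adjusted p = 1.93e-05). The groups stood far apart for both genes, and the pyrimidine runs at their starts are of equal length. RPL7 had 1619.9 ± 45.8 against 591.5 ± 113 CPM (2.74-fold), RPS6 had 3798 ± 178 against 1249 ± 348 CPM (3.05-fold) and RPS24 had 13386 ± 1092 against 4983 ± 894 CPM (2.69-fold). RPL5, at 2.39-fold, was called as well (edgeR adjusted p = 0.0160), but not when scaled by the total count (edgeR adjusted p = 0.0588). It had only 130, 13, 41 and 4 counts in the K562 DMSO libraries of pairs 1 to 4.

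A smaller group of core genes showed no called difference. RPL23A held 1430 ± 205 CPM in MOLM13 DMSO and 1471 ± 392 CPM in K562 DMSO, RPL14 held 1403 ± 78.5 and 1578 ± 277 CPM, and FAU, made as a fusion with a ubiquitin-like protein, held 1516 ± 173 and 1650.2 ± 334 CPM. RPL10, one of the last proteins to join the large subunit, held 438, 440, 473 and 478 CPM in MOLM13 and 592, 737, 378 and 711 CPM in K562. It was lower in MOLM13 with a log2 difference of -0.40 and SE 0.236 (adjusted p = 0.193), which became a call when scaled by the total count (-0.82, edgeR adjusted p = 0.0139). On that scale RPL14 (-0.58, adjusted p = 0.0308) and FAU (-0.52, adjusted p = 0.0444) were called lower in MOLM13 as well. RPSA, the gene of the small subunit protein also known as a laminin receptor, held 347 ± 66.7 and 334 ± 159 CPM. Of the stalk genes, RPLP0 was called (1.58-fold, edgeR adjusted p = 0.0310) and RPLP1 (1.36-fold, adjusted p = 0.1003) and RPLP2 (1.29-fold, adjusted p = 0.214) were not. Each was higher in MOLM13, with log2 differences of 0.66, 0.44 and 0.37 and SEs of 0.225, 0.202 and 0.224. A difference between these genes was not tested. RPS19, the gene most often mutated in Diamond-Blackfan anemia, had 3427 ± 413 and 2453 ± 769 CPM (adjusted p = 0.142), RPS14 had 8475 ± 539 and 4943 ± 887 CPM (adjusted p = 0.0100), and RPL41, the smallest of these proteins, had 1269.8 ± 59.8 and 448 ± 164 CPM (adjusted p = 0.000579).

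The paralogs took different shares beside their parent genes. RPL22L1 was 2.57-fold higher in MOLM13 (adjusted p = 0.000615), at 99.02, 98.7, 130.2 and 127 CPM against 59.2, 52.5, 38.7 and 27.1 CPM, while its parent RPL22 was not called (2099.8 ± 209 and 1640.1 ± 446 CPM). It therefore made up 5.14 ± 0.64% of the summed level of RPL22 and RPL22L1 in MOLM13 DMSO and 2.61 ± 0.241% in K562 DMSO, and the ranges did not overlap. RPL26L1 ran the other way, at 30.1, 23.3, 27.99 and 33.2 CPM in MOLM13 and 66.6, 70.6, 47.6 and 40.8 CPM in K562 (log2 difference -0.97, SE 0.225, adjusted p = 0.00326). With its parent RPL26 at 1 count in all, it held nearly every count of that pair, so a share between the genes has no meaning there.

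RPL7L1 made up 10.9 ± 2.25% of its pair with RPL7 in MOLM13 DMSO and 17.7 ± 4.17% in K562 DMSO, with overlapping ranges. RPS27L made up 21.5 ± 4.08% beside RPS27 in MOLM13 DMSO and 26.9 ± 3.04% in K562 DMSO. RPL39L, best known from testis, made up 5.12 ± 0.49% beside RPL39 in MOLM13 DMSO and 7.62 ± 2.4% in K562 DMSO, at 173 ± 7.38 and 175 ± 22.8 CPM of its own. RPL3L, a paralog of striated muscle, was at most 1.39% of its pair with RPL3 in every DMSO library, and RPL10L, another testis gene, had 66 counts in all 16 libraries. With Ro the largest shift of such a mean share, in percentage points, was that of RPS27L in MOLM13, to 25.4 ± 6.62%. That share was higher with Ro in 4 of 4 pairs, at 27.6%, 20.1%, 19.6% and 18.8% in the DMSO libraries and 34.8%, 23.7%, 23.8% and 19.3% in their Ro partners, although the ranges of the groups overlapped. In K562 it was higher in 2 of 4 pairs.

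Core genes with and without a TOP tract at the annotated start had similar medians, with no test made. In MOLM13 the 42 tested core genes with the tract had a median blocked log2 change of -0.13 with Ro, and the 11 without it had -0.17. In K562 the medians were 0.08 and 0.11, and between the lines in DMSO they were 0.84 and 0.71. These are descriptions, since a start in the annotation need not be the start used in these cells.

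Other genes of the pathway were followed as lists, against 1.17% of all genes called lower and 0.938% higher in the blocked edgeR fit of MOLM13, and 9.65% and 7.55% before adjustment. Of 18 further TOP mRNAs, mostly elongation factors and partners of the ribosome, 16 were lower with Ro in MOLM13 in the blocked edgeR fit, with a median of -0.12. The single call was VIM, the gene of the filament protein vimentin (log2 change -0.31, SE 0.0701, adjusted p = 0.0218), and RACK1, which sits on the small subunit, had -0.22 (SE 0.0644, adjusted p = 0.0893). Of 14 genes that control TOP mRNAs, such as MTOR, LARP1 and the S6 kinases, 0 were called, 1 had an unadjusted p under 0.05 and the median was -0.01. Of 16 tested genes of ribosomal RNA transcription and processing, 13 were lower and 0 were called, with 5 lower at an unadjusted p under 0.05. Of 17 chaperones and assembly partners of ribosomal proteins, 15 were lower and 0 were called, with 7 lower at an unadjusted p under 0.05. Among 64 mitochondrial ribosomal protein genes, 54 were lower, 2 were called lower and 21 were lower at an unadjusted p under 0.05, with a median of -0.13.

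Genes of the p53 response that free ribosomal proteins can set off had positive changes in MOLM13. Of 11 tested, 11 had a positive blocked change and 4 were called, with a median of 0.26. CDKN1A, the cell cycle inhibitor p21, had a log2 change of 0.68 (SE 0.0841, adjusted p = 8.32e-05), MDM2, the p53 ubiquitin ligase that RPL5 and RPL11 bind, had 0.51 (SE 0.0764, adjusted p = 0.000620), BBC3, a death gene, had 0.32 (SE 0.0827, adjusted p = 0.0444) and GDF15, a stress cytokine, had 0.71 (SE 0.188, adjusted p = 0.0492). Without the block 0 of the 11 were called and 0 had an unadjusted p under 0.05. In K562 the same 11 genes had a median of 0.17, with 0 called in the blocked edgeR fit (0.0% of all genes). Before adjustment, 1 had a p under 0.05 there, as did 0.847% of all genes higher and 1.27% lower. Whether p53 acted in either line was not tested. Between the lines in DMSO the lists parted, since the 64 mitochondrial ribosomal protein genes had a median log2 difference of -0.31. Of these, 4 were called higher in MOLM13 and 20 lower, where the 74 cytosolic members had 49 and 1. Of all genes tested, 21.1% were called higher and 20.3% lower.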

How the data were processed

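The authors deposited a table of raw read counts per gene for 16 libraries of 3′-end mRNA sequencing, and 0 of its columns lacked a sample. The submitters' processing notes name Trim Galore, STAR 2.5.3a, SAMtools 1.5 and the build hg38. The counting program, its annotation and the treatment of reads with several matches are not given in the sources used here. Totals ran from 3143129 to 43571060 counts, so that the floor of 3 counts was 0.0689 to 0.954 CPM, for counting error only.

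A gene was tested if 4 or more libraries of the comparison held 10 or more of its counts. The test was edgeR 4.0.16 (TMM scaling, quasi-likelihood F test, Benjamini-Hochberg adjustment over all genes tested), in each line apart, for the line by treatment term and between the DMSO groups, in R 4.3.3. Log2 CPM used a prior count of 2, and an SE is the size of the log2 change divided by the root of F. The scripts were tested on simulated data. Alternatives were the pair as a block, DESeq2 1.42.0, limma-voom (limma 3.58.1), other scalings and filters, a loess trend (span 0.3) on mean level, and each library left out. Python 3.11.15 with matplotlib 3.10.9, numpy 2.4.6 and pandas 2.3.3 made the tables and figures.

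The labels call the libraries of a number a pair. Deviations from the group means correlated within every pair, at 0.625, 0.441, 0.384 and 0.831 in MOLM13 and 0.355, 0.111, 0.417 and 0.246 in K562, so blocked values stand beside the results they change. Genes of like mean level are all other tested genes between the lowest and the highest core member above 100 CPM. Within that range their levels were not matched to those of the members. Named genes, 44 in all, were the members of fixed roles (paralogs and their parents, stalk, 5S partners and a few others), the 5 with the smallest p in each comparison and direction (in the blocked fits, with 1 sign in all 4 pairs) and the 3 of highest and of lowest level in each line. Those named outside the rule are marked in the text, and some items the rule names are not reported here. Members and lists were chosen with earlier results of these data known.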

Additional observations from a re-analysis of the deposited data

Results flagged for a closer look

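In each group of 4 libraries the gap of the farthest library to its neighbour was compared with the range, for the named genes and the shares of counts. Of 178 such groups, 15 had a library far from the other 3, where chance gives about 5% of groups. The Ro library of K562 pair 1 was the high one for 9 genes of both subunits: RPL27A at 16136 CPM, RPS12 at 8997.9, RPS14 at 6889, RPLP1 at 5735, RPLP0 at 4422, FAU at 2430.3, RPL28 at 527, RPS27L at 327 and RPL29 at 111 CPM. For RPL27A the other 3 libraries lay between 9972 and 10561 CPM. Without that library, in edgeR without pairing and with its DMSO partner kept, the K562 median log2 change turned from 0.09 to -0.11.

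The DMSO library of MOLM13 pair 4 was the high one for RPS27A at 13911 CPM, RPLP2 at 5379 CPM and RPS19 at 4039.5 CPM, where the other 3 reached 9937, 4292 and 3314 CPM. With Ro in MOLM13, RPL22 was low in pair 3 at 1712 CPM (others 2035 to 2069 CPM), and RPS14 was high in pair 1 at 8784 CPM (others 7496 to 7691 CPM). RPL7 was high in the DMSO library of K562 pair 1, at 759.9 CPM against 525 to 545 CPM in the others.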

How the results depend on the processing

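With Ro in MOLM13, edgeR called 0 members with or without the pair as a block. In the unpaired fits that left out 1 library it also called 0, and the median log2 change ran from -0.17 to -0.12. The unpaired fit of all MOLM13 libraries called 0.0% of all genes, so these zeros say little about how firm the result is. Members called lower numbered 4 in DESeq2 with the block, 2 in limma-voom with the block and 2 with DESeq2 size factors and the block. The blocked fit without pair 2 called 1 (RPL10A), and that without pair 4 called 4 (RPL23A, RPL30 and RPS23 among them). For the fits with DESeq2 size factors or with a pair left out, the share of all genes called is not given here. Their counts therefore do not show that members differ from other genes. With the trend on mean level removed the median was -0.024. In K562 the count stayed at 0 when 1 library was left out of the unpaired fit, which called 0.0% of all genes with all libraries. The medians ran from -0.11 (without the Ro library of pair 1, its DMSO partner kept) to 0.17. The fit of pairs 1 and 3 called 1 member higher. For the difference between the lines in response the count was 0 throughout, where the fit of all libraries called 0.0% of all genes. The median ran from -0.34 to -0.05, the latter without the same library and with its DMSO partner kept.

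Between the lines in DMSO, 36 to 50 members were called higher and 1 lower when 1 library was left out, with medians of 0.72 to 0.85. Scaling by the total count gave 27 higher, 4 lower and a median of 0.34. Totals without the member rows, added after the data were seen, gave 31 higher, 2 lower and 0.42, and the Ro libraries, also added, gave 3 lower. The share of all genes called is not given here for totals without the member rows or for fits with a library left out. Leaving out 1 library gave mean shares of counts of 16.8% to 17.8% for MOLM13 DMSO, 16.2% to 17.2% for MOLM13 Ro, 12.6% to 13.3% for K562 DMSO and 12.1% to 13.5% for K562 Ro. Without the most counted row the MOLM13 shares were 20.0% and 19.2%. The replicate block changed no other call on the members. The causes were not tested. A count of 3 was worth up to 0.954 CPM in the shallowest library.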

Other observations

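RPS23, a small subunit protein of the decoding site, had no shared direction with Ro across pairs in either line, and was singled out after its values were seen. In MOLM13 it held 193, 125, 205 and 90.7 CPM with DMSO and 62.4, 122, 134 and 127 CPM with Ro, so that the log2 ratio of Ro over DMSO was -1.63, -0.03, -0.61 and 0.48 in pairs 1 to 4. In K562 it held 158, 333, 92.0 and 109 CPM with DMSO and 321, 136, 129 and 131 CPM with Ro, with ratios of opposite sign in pairs 1 and 2.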
